A study of Mus musculus with 18 samples.

Results

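The liver carries a circadian clock, and 10 of its genes were followed here: Arntl, Clock, Npas2, Cry1, Per1, Per2, Per3, Nr1d1, Nr1d2 and Dbp. They were chosen by symbol from a table of 19057 rows, and each symbol was found in the table. Messenger RNA had been sequenced from the livers of 18 male ICR mice aged 10 weeks, 3 mice in each of 6 groups. Con mice were the controls, and AOS mice were labelled as given AOS (alginate oligosaccharide) at 10 mg/kg. STZ mice had a single injection of streptozotocin, a toxin of the insulin-producing beta cells that is used to model type 1 diabetes, and STZ+AOS mice were labelled with STZ together with AOS at 10 mg/kg. A10-FMT and Con-FMT mice had STZ followed by daily transfer by mouth of small intestinal microbiota, which came from donors on AOS (10 mg/kg) for A10-FMT and from control donors for Con-FMT. The donor content was pooled within each donor group, so that each FMT group received 1 pool. AOS and STZ+AOS are known from the sample labels alone, and the schedule of AOS in these mice is not given in the sources used here. Light and dark alternated daily and the mice ate freely, but the hour at which each group was killed is not given in the sources used here. Clock genes vary with the hour, so the hour of sampling and the treatment cannot be told apart in any difference between groups below.

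The clock is a feedback loop. The proteins of Arntl (also called Bmal1) and Clock pair on E-box sequences and switch on the Per and Cry genes, whose proteins enter the nucleus and stop the pair. NPAS2 can take the place of CLOCK. The same pair drives Nr1d1 and Nr1d2, which encode the nuclear receptors REV-ERB alpha and REV-ERB beta, and these in turn repress Arntl, Npas2 and Clock through a shared element that the activating ROR receptors also bind. Dbp is an output of the loop whose protein binds D-boxes, for example in Per genes. In a liver on a regular light cycle the Arntl group and the Nr1d1 and Dbp group peak at roughly opposite phases of the day, and in nocturnal animals feeding time alone can move the liver clock.

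The proteins of the loop bind short sequences, and promoter stretches of these genes that hold such letters are shown beside the genes whose levels follow. Windows from 250 bases before to 50 bases after a RefSeq start (GRCm38.p6) were at hand for 9 of the 10 genes, 13 windows in all, and 5 genes had a match. Both strands were searched for the E-box CACGTG, the E'-box CACGTT, the ROR/REV-ERB element as TAGGTCA or TGGGTCA, the D-box as TTATGTAA or TTACGTAA, and the cyclic AMP response element TGACGTCA. Each stretch is written 5′ to 3′ on the strand of its gene, with the matched letters in capitals, and AACGTG is the E'-box read on the other strand. No searched letters overlap within these matches. Of 32851 windows of the same length over all genes, 7.15% held the E-box, 4.68% the E'-box, 6.45% the ROR/REV-ERB element, 1.06% the D-box and 1.79% the cyclic AMP response element.
Per1, E-box, chr11:69098749-69098828 on the plus strand: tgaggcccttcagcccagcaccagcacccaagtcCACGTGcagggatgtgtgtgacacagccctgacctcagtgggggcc
Cry1, E'-box and E-box, chr10:85185085-85185154 on the minus strand: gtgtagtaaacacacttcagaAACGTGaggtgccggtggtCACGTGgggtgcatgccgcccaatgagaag
Nr1d1, E'-box, chr11:98775378-98775437 on the minus strand: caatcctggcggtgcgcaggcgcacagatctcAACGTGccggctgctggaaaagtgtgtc
Per3, D-boxes, chr4:151044806-151044885 on the minus strand: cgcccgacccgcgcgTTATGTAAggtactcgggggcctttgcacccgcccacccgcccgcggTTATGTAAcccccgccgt
Arntl, ROR/REV-ERB element, chr7:113207529-113207558 on the plus strand: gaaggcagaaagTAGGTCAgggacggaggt

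Counted from the RefSeq start of its own window, the Per1 E-box began at -166, the Cry1 E'-box at -79 and its E-box at -60. The Nr1d1 E'-box began at -28 and the Per3 D-boxes at -205 and -158. The Per1 stretch lies inside the gene (chr11:69095217-69109960), before an internal start and not before the first base of the gene. The element of Arntl began at position 31, after the start. The windows of Clock, Npas2, Nr1d2 and Dbp held none of the searched letters, which says nothing of sites elsewhere in these genes. A match is a description of letters and was not tested as a site.

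Gene positions below are those of GENCODE on GRCm38, the build also called mm10. Levels are given in RPKM, read numbers divided by transcript length and by how many reads of the library mapped, and fitted changes are differences of log2(RPKM + 1) between group means with their standard error (SE). Values summed to between 621121 and 806937 RPKM per library, and the sums of the 6 Con and AOS libraries lay above those of the 12 libraries with STZ. Depth in reads could not be derived from RPKM, and the steps of low values in 48 genes gave relative depths of 0.957 to 1.08. Of the libraries, 2 stood apart from the rest. Con mouse 3 lay between Con mice 1 and 2 in 87 of the 88 genes (98.9%) in which those mice differed by at least 2-fold, and AOS mouse 3 lay between AOS mice 1 and 2 in 76 of 77 (98.7%), against 0 to 83.8% in the other 16 libraries. The cause was not tested, and each result with Con or AOS is given also without these mice where that changed it. The labels do not say more of the mice than their numbers. The limma p-values rest on 1 estimate per gene of the spread between mice within groups, shared by all groups of a fit. A comparison of groups with little spread thus also carries the wider spread of the others. Hepatocyte markers (Alb, Apoa1, Ttr and Hnf4a) summed to 36080 to 53822 RPKM in Con and 32158 to 45259 in STZ, where 1 of the 4 was called higher and 2 lower, and to 46112 to 52460 in AOS and 32636 to 39927 in STZ+AOS, which did not overlap. Their part in the results was not tested, and in such bulk tissue fewer cells of a type and less RNA per cell cannot be told apart.

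Arntl (chr7:113207465-113314126, plus strand), the partner without which the activator does not form, was lower in each A10-FMT mouse than in each Con mouse. Its RPKM was 10.11, 12.90 and 12.15 in the Con mice, 11.16, 12.72 and 11.81 with AOS, and 1.90, 8.07 and 9.64 with STZ. It was 6.77, 3.85 and 16.89 with STZ+AOS, 2.04, 1.42 and 0.83 in A10-FMT, and 6.17, 4.69 and 3.79 in Con-FMT. All 3 STZ mice lay below the Con mice, with STZ mouse 1 far below the other two, whereas STZ+AOS mouse 3 was the highest of all 18. The A10-FMT mice lay below all mice of the other groups except STZ mouse 1, which stood among them.

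Clock (chr5:76209868-76304792, minus strand), the other partner, had the narrowest relative range of the 3 activators. Its RPKM was 4.94, 6.0 and 5.68 in Con, 5.47, 5.88 and 6.29 in AOS, and 2.18, 6.41 and 7.06 in STZ. It was 5.52, 3.94 and 7.74 in STZ+AOS, 3.89, 3.24 and 2.95 in A10-FMT, and 4.73, 4.56 and 4.84 in Con-FMT. STZ mouse 1 was again the lowest of its group, and the remaining STZ mice were above the Con mice. The 3 A10-FMT mice lay below the 3 Con-FMT mice.

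Npas2 (chr1:39193731-39363236, plus strand), the substitute for Clock, was near 0 in most livers with STZ. Its RPKM was 2.90, 3.48 and 2.95 in Con and 2.93, 3.61 and 3.40 in AOS. It was 0.09, 0.29 and 1.87 in STZ, 0.28, 0.22 and 0.18 in STZ+AOS, 0.08, 0.07 and 0.03 in A10-FMT, and 0.45, 0.35 and 0.15 in Con-FMT. The 6 mice without STZ and the 12 mice with STZ did not overlap, and STZ mouse 3 was the only one of the 12 above 1 RPKM.

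Cry1 (chr10:85131700-85185064, minus strand), whose protein is the strongest repressor of the activator pair, was highest in Con. Its RPKM was 8.45, 14.03 and 10.46 in Con, 5.25, 7.41 and 8.10 in AOS, and 3.44, 6.45 and 7.52 in STZ. It was 5.99, 3.90 and 11.56 in STZ+AOS, 2.96, 3.10 and 3.06 in A10-FMT, and 3.76, 2.72 and 2.81 in Con-FMT. The AOS, STZ, A10-FMT and Con-FMT mice all lay below the Con mice, and STZ+AOS mouse 3 was once more the high one of its group.

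Per1 (chr11:69095217-69109960, plus strand), which also answers to glucocorticoid and cyclic AMP signals, was low without STZ. Its RPKM was 0.44, 2.34 and 1.32 in Con, 2.88, 1.11 and 1.40 in AOS, and 16.76, 18.47 and 6.19 in STZ. It was 11.12, 9.57 and 22.68 in STZ+AOS, 6.15, 4.05 and 8.95 in A10-FMT, and 4.16, 3.95 and 7.27 in Con-FMT. Each of the 12 mice with STZ was above each of the 6 without it. Per2 (chr1:91415982-91459324, minus strand), its paralog, showed no such separation. Its RPKM was 1.68, 6.92 and 4.27 in Con, 3.12, 1.33 and 1.99 in AOS, and 7.31, 4.42 and 2.77 in STZ. It was 5.01, 3.98 and 2.11 in STZ+AOS, 5.11, 5.55 and 10.31 in A10-FMT, and 3.17, 5.05 and 5.52 in Con-FMT, and all neighbouring groups overlapped in the order of their means.

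Per3 (chr4:151003652-151044665, minus strand), the member of the family with the least part in keeping the loop running, was at or below 1.06 RPKM in the 6 mice without STZ. Its RPKM was 0.18, 0.81 and 0.58 in Con, 1.06, 0.40 and 0.55 in AOS, and 10.75, 5.54 and 1.57 in STZ. It was 4.14, 7.28 and 2.24 in STZ+AOS, 4.20, 6.34 and 6.58 in A10-FMT, and 4.06, 2.93 and 2.57 in Con-FMT. STZ mouse 1 was the highest of all 18, and all 12 mice with STZ lay above those without.

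Nr1d1 (chr11:98767932-98775333, minus strand) and Nr1d2 (chr14:18204054-18239127, minus strand), the repressors of Arntl, were lower in each Con mouse than in each mouse of the other 5 groups. Nr1d1 RPKM was 1.22, 3.68 and 2.72 in Con, 30.70, 10.03 and 16.86 in AOS, and 32.94, 35.12 and 22.86 in STZ. It was 23.00, 54.12 and 45.70 in STZ+AOS, 51.27, 66.51 and 24.39 in A10-FMT, and 53.17, 43.38 and 42.46 in Con-FMT. Nr1d2 RPKM was 2.05, 3.03 and 2.49 in Con, 10.41, 6.39 and 8.16 in AOS, and 31.69, 28.79 and 14.12 in STZ. It was 21.07, 32.33 and 31.15 in STZ+AOS, 18.82, 21.57 and 23.30 in A10-FMT, and 17.32, 14.94 and 15.56 in Con-FMT. For Nr1d2, Con, AOS and the STZ groups thus formed 3 steps without overlap. For Nr1d1 they did not, as AOS mouse 1 (30.70) lay above STZ mouse 3, STZ+AOS mouse 1 and A10-FMT mouse 3.

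Dbp (chr7:45705088-45710203, plus strand), the D-box binding output of the loop, spanned the widest range. Its RPKM was 0.66, 0.58 and 0.68 in Con, 3.41, 0.36 and 1.78 in AOS, and 88.02, 18.69 and 6.75 in STZ. It was 16.55, 76.46 and 24.27 in STZ+AOS, 62.28, 78.66 and 80.29 in A10-FMT, and 53.94, 37.89 and 27.27 in Con-FMT. The lowest mouse with STZ was above the highest without it, STZ mouse 1 was the highest of all, and A10-FMT lay wholly above Con-FMT. Exons of Dbp share 539 of 2993 bases with Sphk2 on the opposite strand, and those of Nr1d1 share 263 of 3077 bases with Thra. The sources used here do not state whether strand was used in counting, so reads of these stretches cannot be assigned to either gene.

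**Figure D1:**
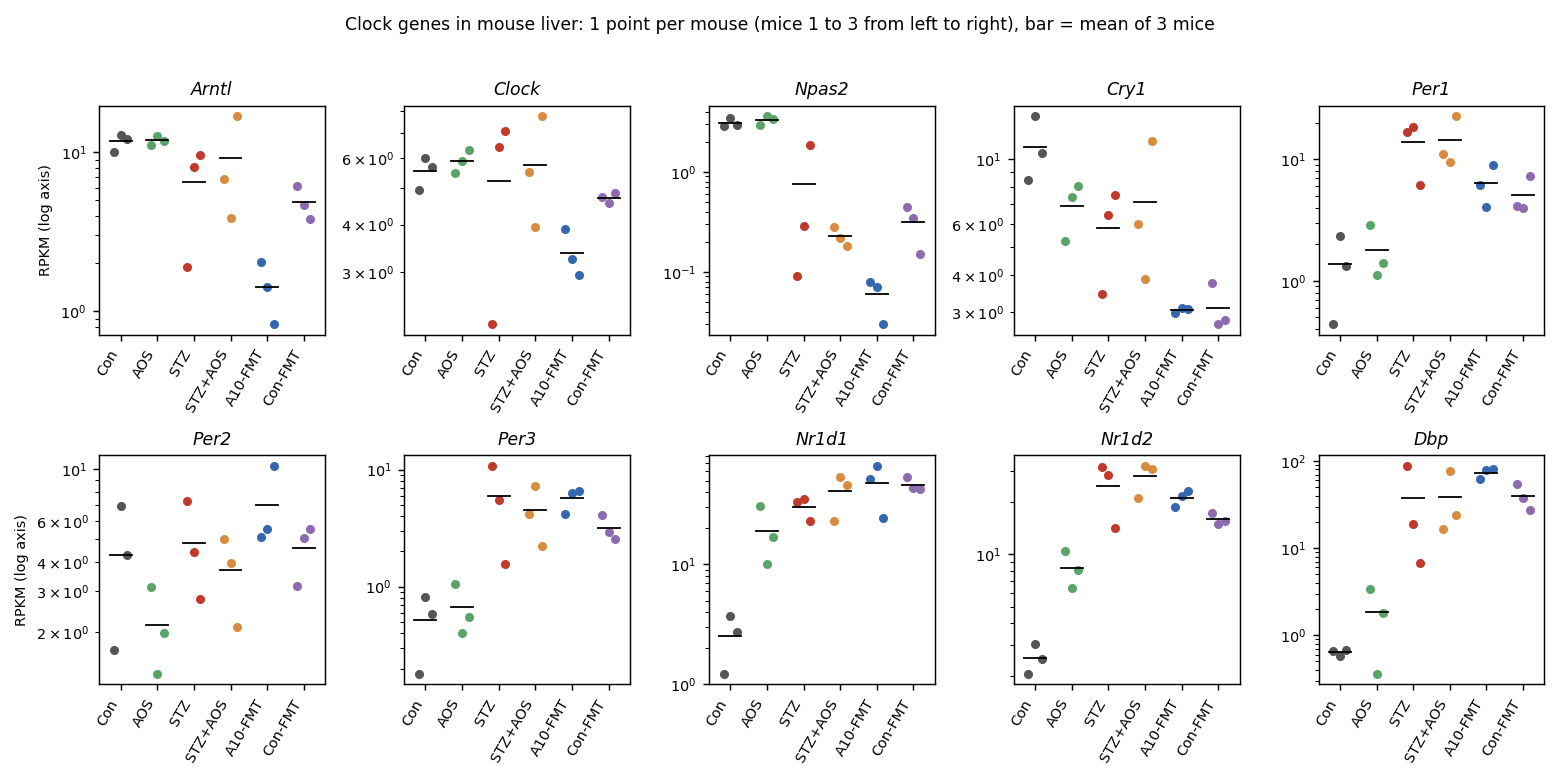
RPKM of each clock gene on a log axis, by group on the horizontal axis, with 1 point for each of the 3 mice and a bar at their mean. Npas2 sat between 0.03 and 1.87 in the 12 mice with STZ and between 2.90 and 3.61 in the 6 without, and Nr1d2 formed 3 steps, from 2.05 to 3.03 in Con, 6.39 to 10.41 in AOS and 14.12 to 32.33 in the others.

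When the groups were ordered by their mean RPKM, most neighbours overlapped. All 5 neighbouring pairs overlapped for Cry1 and Per2, 4 of 5 for Arntl, Clock, Per1, Per3 and Nr1d1, 3 for Npas2 and Dbp, and 2 for Nr1d2. For Arntl and Clock the only gap was between Con-FMT, at 4.88 ± 1.20 and 4.71 ± 0.14 RPKM (SD, n = 3), and A10-FMT, at 1.43 ± 0.61 and 3.36 ± 0.48. For Per1 and Per3 it lay between Con-FMT, at 5.13 ± 1.86 and 3.19 ± 0.78, and AOS, at 1.80 ± 0.95 and 0.67 ± 0.35. For Nr1d1 it lay between AOS, at 19.2 ± 10.5, and Con, at 2.54 ± 1.24. For Arntl, Clock, Per1, Per3, Nr1d2 and Dbp the SD was larger in STZ and in STZ+AOS than in the other 4 groups, and Dbp had an SD of 43.9 about a mean of 37.8 in STZ against 9.96 about 73.7 in A10-FMT.

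**Figure D2:**
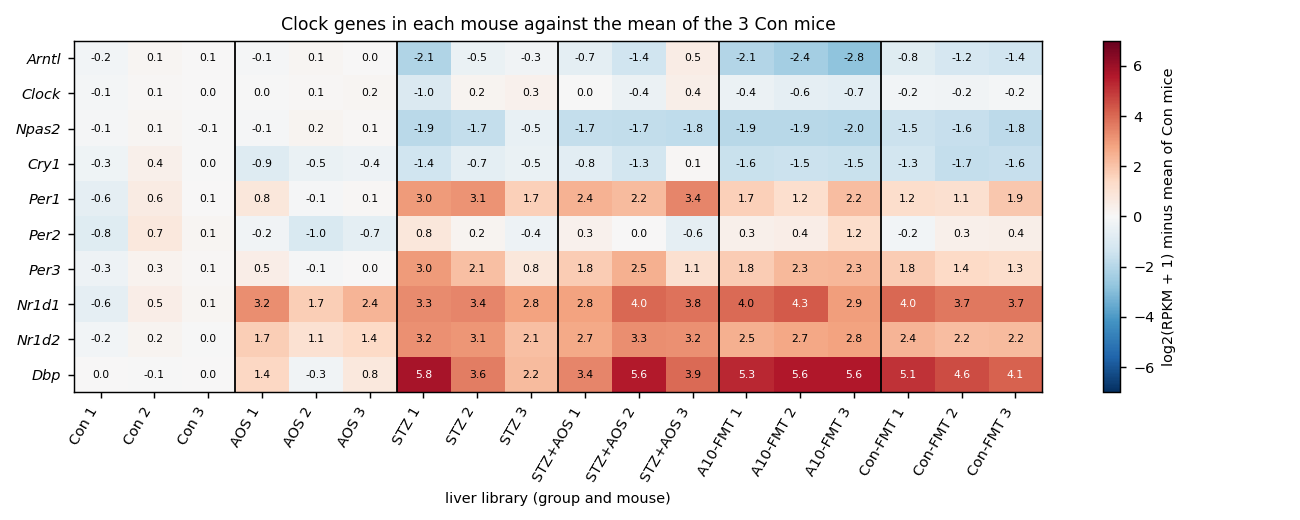
Difference of log2(RPKM + 1) of each clock gene (rows) in each library (columns) from the mean of the 3 Con mice, in red where higher and in blue where lower, with the value in each cell. STZ mouse 1 reached -2.13 for Arntl and 5.76 for Dbp, whereas STZ mouse 3 stood at -0.25 and 2.24.

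The comparison of STZ with Con asks how the liver of the diabetes model differed from that of the controls. Nr1d1, Nr1d2, Per1, Per3 and Dbp rose, and Npas2 and Cry1 fell. Dbp rose by 3.86 ± 0.64 on the log2 scale (SE, adjusted p = 0.00155 by limma with Benjamini-Hochberg adjustment), Nr1d1 by 3.19 ± 0.34 (adjusted p = 0.000326) and Nr1d2 by 2.81 ± 0.24 (adjusted p = 0.000102). By p-value Nr1d2 stood at rank 10 and Nr1d1 at rank 39 of 10602 genes. Per1 rose by 2.60 ± 0.41 (adjusted p = 0.00128) and Per3 by 1.96 ± 0.42 (adjusted p = 0.0052). Npas2 changed by -1.37 ± 0.28 (adjusted p = 0.00387) and Cry1 by -0.84 ± 0.23 (adjusted p = 0.0141). Arntl was at -0.95 ± 0.40 with an adjusted p of 0.0761, Clock at -0.18 ± 0.27 with 0.618 and Per2 at 0.20 ± 0.40 with 0.712, so these 3 did not pass.

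These 7 of 10 genes, 5 higher and 2 lower, stood beside 38.5% of all genes tested, of which 33% were called higher and 5.52% lower. The mice did not overlap between STZ and Con in 8 of the 10, against 47.7% of all genes. The median change was 1.08 over the 10 genes and 0.21 over all genes tested. When libraries were scaled by the median of ratios, the median over all genes came to -0.01 and the calls to 2871, of which 1480 were higher, in place of 4087 with 3502 higher. The 7 genes kept their direction under that scaling, and Arntl was called beside them at -1.19 (adjusted p = 0.0471), as it was after quantile normalization at -1.22 (adjusted p = 0.0415). Genes entered the fit by reaching 1 RPKM in enough libraries, and Npas2 did so in 4 of the 12 libraries fitted (3 of Con and 1 of STZ), whereas Per3 and Dbp did so in 9 of 12 with 0 of Con. The passing of these 3 thus rested mostly on the groups where they were high, and 4 of the other 7 genes were called. These 3 are also among the 8 without overlap and enter the median of 1.08. Ordered by change, the middle gene of the other 7 was Per2 at 0.20, near the 0.21 over all genes. Without STZ mouse 1 the change of Dbp came to 2.91 and that of Per3 to 1.45, and without STZ mouse 3 they came to 4.67 and 2.55. Arntl was called, at -1.30 (adjusted p = 0.0181), without STZ mouse 3, but stood at -0.37 (adjusted p = 0.217) without STZ mouse 1. The call of Cry1 was lost without Con mouse 2 (adjusted p = 0.0513) and in a fit of the STZ and Con mice alone (adjusted p = 0.0571), and it held in 13 of 15 alternatives. Without Con mouse 3 the same 7 genes were called, beside 2752 of all genes in place of 4087.

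**Figure D3:**
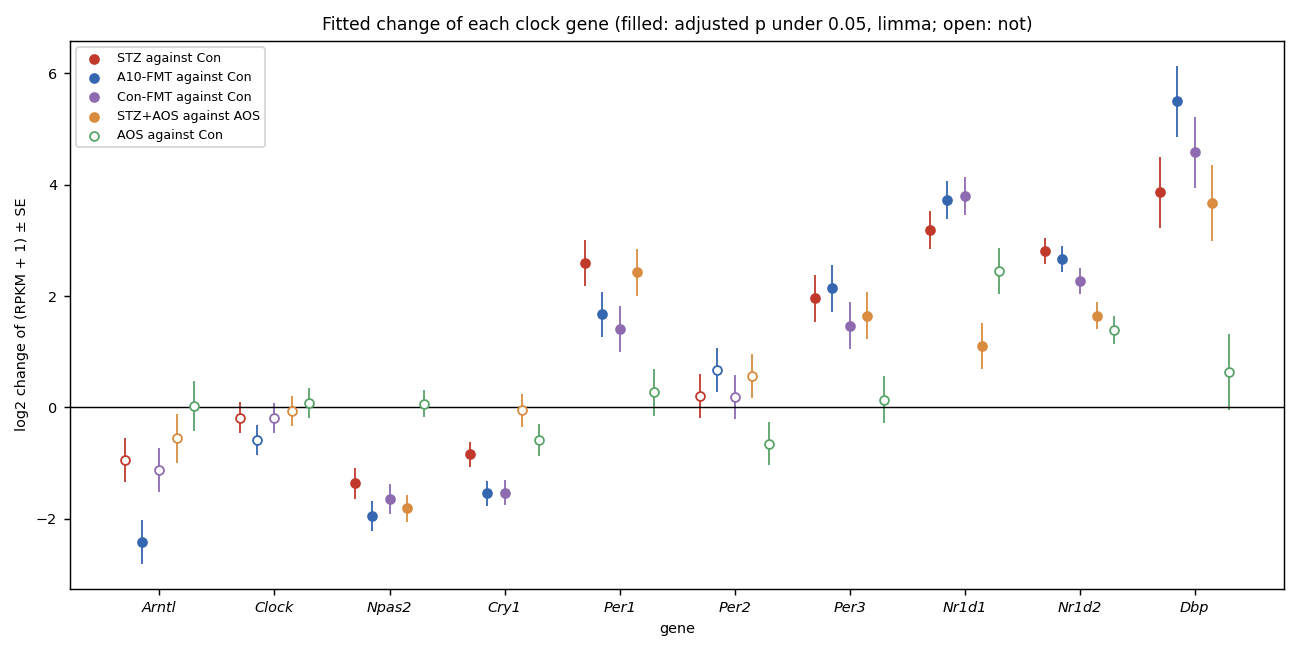
Fitted log2 change of each clock gene (horizontal axis) with its SE in 5 comparisons, filled where the adjusted p of limma was under 0.05 and open where it was not. Dbp reached 5.50 in A10-FMT against Con, while no member was called in AOS against Con, where Nr1d1 stood at 2.45 and Nr1d2 at 1.39.

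The comparisons of A10-FMT and Con-FMT with STZ ask whether transferred microbiota moved these genes in diabetic mice. None of the 10 was called in either. Of all genes, 0.226% were called for A10-FMT and 0.00943% for Con-FMT, and the numbers of members at an unadjusted p under 0.05 by limma were 4 and 3. In A10-FMT against STZ Arntl stood at -1.46 ± 0.40 (adjusted p = 0.0938), Dbp at 1.64 ± 0.64 (adjusted p = 0.186), Per1 at -0.93 ± 0.41 (adjusted p = 0.229) and Cry1 at -0.70 ± 0.23 (adjusted p = 0.134). In Con-FMT against STZ Per1 stood at -1.19 ± 0.41 (adjusted p = 0.153), Cry1 at -0.69 ± 0.23 (adjusted p = 0.137) and Nr1d2 at -0.54 ± 0.24 (adjusted p = 0.236). The mice did not overlap for 2 members in the former comparison (Npas2 and Cry1, 21.5% of all genes) and for 1 in the latter (Nr1d1, 17.7% of all genes). The gap for Npas2 lay near 0, between 0.08 RPKM in A10-FMT and 0.09 in STZ.

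These counts rested on single STZ mice. Without STZ mouse 1, 4 members were called in A10-FMT against STZ, namely Arntl at -2.05 (adjusted p = 0.0113), Clock at -0.83 (adjusted p = 0.0145), Cry1 at -0.98 (adjusted p = 0.0357) and Dbp at 2.59 (adjusted p = 0.0155), among 105 genes in all. Without STZ mouse 3, Per1 at -1.39 and Nr1d2 at -0.49 were called instead, among 1347 genes in all, and Per1 at -1.64, Per3 at -1.08 and Nr1d2 at -0.88 were called in Con-FMT against STZ, among 1640. For Arntl, Clock, Cry1 and Dbp the A10-FMT mean stood farther from Con than the STZ mean did. Without STZ mouse 1 the STZ mean of Clock lay above Con, by 0.24. For Per1, Per3 and Nr1d2 the called FMT means stood nearer to Con.

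Against Con, both FMT groups differed at most of these genes, and these comparisons share the Con mice with each other and with STZ against Con. In A10-FMT 8 members were called (5 higher, 3 lower) beside 18.4% of all genes (15.9% higher, 2.47% lower), and 5 of 7 apart from Npas2, Per3 and Dbp. Dbp rose by 5.50 ± 0.64 (adjusted p = 0.000906 by limma), Nr1d1 by 3.73 ± 0.34, Nr1d2 by 2.66 ± 0.24, Per3 by 2.14 ± 0.42 and Per1 by 1.67 ± 0.41 (adjusted p = 0.0203). Arntl changed by -2.41 ± 0.40 (adjusted p = 0.00374), Npas2 by -1.95 ± 0.28 and Cry1 by -1.54 ± 0.23. Clock stood at -0.59 ± 0.27 (adjusted p = 0.147), with all 3 mice below the Con mice. In Con-FMT 7 members were called (5 higher, 2 lower) beside 19.4% of all genes (17.5% higher, 1.89% lower), and 4 of 7 apart from the same 3 genes. Dbp rose by 4.58 ± 0.64, Nr1d1 by 3.80 ± 0.34, Nr1d2 by 2.27 ± 0.24, Per3 by 1.46 ± 0.42 (adjusted p = 0.0349) and Per1 by 1.41 ± 0.41 (adjusted p = 0.0362). Npas2 changed by -1.65 ± 0.28 and Cry1 by -1.53 ± 0.23, and Arntl stood at -1.13 ± 0.40 (adjusted p = 0.0656). Without Con mouse 3 the calls of Per1 were lost in both groups and that of Per3 in Con-FMT, which left 7 and 5. All genes called then numbered 723 for A10-FMT and 730 for Con-FMT, in place of 1953 and 2059. Leaving out single mice of Con-FMT or Con gave 5 to 6 members in Con-FMT, so the count of 7 held in none. With median-ratio scaling Per1 (adjusted p = 0.0712 by limma) and Per3 (adjusted p = 0.0605 by limma) were not called in Con-FMT. Over 14 alternatives Per1 was called in 9 for A10-FMT and in 6 for Con-FMT, and Per3 in 5 for Con-FMT.

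The FMT groups themselves, which differ in whether the donors had AOS, did not differ by the test at any gene (0% of all genes called by limma). One member had an unadjusted p under 0.05, which was Arntl at -1.29 ± 0.40 (adjusted p = 0.999 by limma). In a fit of the FMT groups alone its SE was 0.21 (adjusted p = 0.735 by limma). The mice of the groups did not overlap for 6 of the 10 genes, against 8.93% of all genes. Arntl, Clock and Npas2 were lower in each A10-FMT mouse than in each Con-FMT mouse, and Per3, Nr1d2 and Dbp were higher. These 6 genes belong to 1 loop and are not independent observations.

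AOS without STZ asks what the oligosaccharide alone did. No member was called beside 0.00924% of all genes, and 2 members had an unadjusted p under 0.05 by limma. These were Nr1d1, at 2.45 ± 0.42 (adjusted p = 0.0959), and Nr1d2, at 1.39 ± 0.24 (adjusted p = 0.0959), which stood at ranks 2 and 4 of 10822 genes by p-value. The AOS mice did not overlap with the Con mice for 3 members (Nr1d1 and Nr1d2 higher, Cry1 lower), against 24.4% of all genes. Dbp stood at 0.64 ± 0.69 and Arntl at 0.02 ± 0.44, and the Arntl values of the AOS mice lay within those of the Con mice. Nr1d1 was called without AOS mouse 2 (2.82, adjusted p = 0.0392), and Nr1d2 was called with median-ratio scaling (1.36, adjusted p = 0.046) and in a fit of the AOS and Con mice alone (1.39, adjusted p = 0.0256). Without Con mouse 3 and AOS mouse 3 no member was called.

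With STZ present, AOS went with no call. In STZ+AOS against STZ 0% of all genes and none of the 10 were called by limma, and none of the 10 had an unadjusted p under 0.05. Dbp stood at 0.45 ± 0.69, at 1.40 without STZ mouse 1 and at -0.37 without STZ mouse 3. In STZ+AOS against AOS 6 members were called (5 higher, 1 lower) beside 37.9% of all genes (31.8% higher, 6.11% lower), and 3 of 7 apart from Npas2, Per3 and Dbp. Dbp rose by 3.67 ± 0.69 (adjusted p = 0.00125 by limma), Per1 by 2.42 ± 0.42, Per3 by 1.65 ± 0.42, Nr1d2 by 1.65 ± 0.24 and Nr1d1 by 1.10 ± 0.42 (adjusted p = 0.0477), while Npas2 changed by -1.81 ± 0.24 (adjusted p = 0.000178). The call of Nr1d1 was lost without AOS mouse 3 (adjusted p = 0.106) and held in 4 of 15 alternatives. The difference between the STZ effects with and without AOS was called for 0% of all genes by limma, and 2 members had an unadjusted p under 0.05, Nr1d1 at -2.09 ± 0.59 and Nr1d2 at -1.16 ± 0.35 (adjusted p = 0.856 for both).

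Arntl and Dbp, which stand at opposite ends of the loop, were set against each other as a log2 ratio of their RPKM in each mouse. The ratio was 3.94, 4.48 and 4.16 in Con, 1.71, 5.14 and 2.73 in AOS, and -5.53, -1.21 and 0.51 in STZ. It was -1.29, -4.31 and -0.52 in STZ+AOS, -4.93, -5.79 and -6.60 in A10-FMT, and -3.13, -3.01 and -2.85 in Con-FMT. The STZ mice thus spread over most of the range, from a value within those of A10-FMT to one below the lowest AOS mouse, whereas the Con-FMT mice lay within a narrow band.

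**Figure D4:**
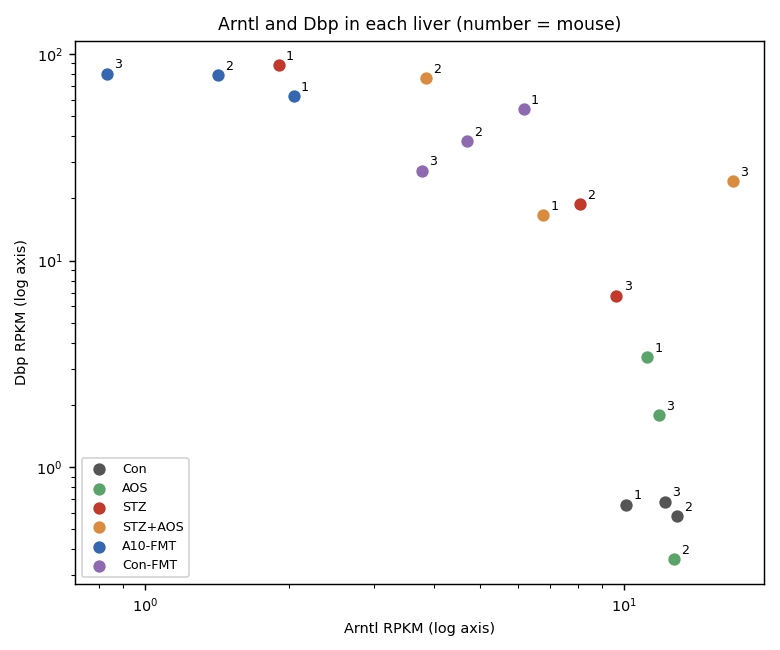
Dbp against Arntl in RPKM, both on log axes, with 1 point per mouse, coloured by group and numbered by mouse. The Con mice lie at the lower right, at 10.11 to 12.90 RPKM of Arntl and 0.58 to 0.68 of Dbp, and the A10-FMT mice at the upper left, at 0.83 to 2.04 and 62.28 to 80.29.

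Whether the members varied together from mouse to mouse was examined after each group's mean was subtracted from its mice, so that treatment differences did not enter. Clock and Cry1 followed Arntl over the 18 mice. For Clock, Pearson's r was 0.939 (exact permutation p = 0.00075, adjusted over 9 genes 0.00357) and Spearman's rho 0.880 (exact permutation p = 0.00171). For Cry1, r was 0.878 (exact permutation p = 0.000793, adjusted 0.00357) and rho 0.818 (exact permutation p = 0.00174). Without STZ mouse 1 and STZ+AOS mouse 3, whose Arntl lay farthest from the median, r was 0.912 for Clock and 0.786 for Cry1. The Arntl differences ran from -1.17 to 1.03 in STZ and STZ+AOS, against -0.38 to 0.35 in the other groups, so the former weigh most. Arntl fell from mouse 1 to mouse 3 in both FMT groups. Clock fell with it in A10-FMT but not in Con-FMT (4.73, 4.56 and 4.84 RPKM). Cry1 was flat in A10-FMT (2.96, 3.10 and 3.06) and highest in mouse 1 of Con-FMT.

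The other 7 genes did not pass after adjustment. Per3 had an r of -0.756 (exact permutation p = 0.0643, adjusted 0.145), Dbp of -0.693 (p = 0.125, adjusted 0.224, exact permutation), and Per2 of -0.558 (exact permutation p = 0.0366, adjusted 0.110). The r was 0.514 for Npas2, -0.352 for Nr1d2, 0.048 for Nr1d1 and 0.013 for Per1. The corresponding rho values were -0.484 for Per3, -0.534 for Dbp, -0.556 for Per2, 0.399 for Npas2, -0.187 for Nr1d2, 0.214 for Nr1d1 and 0.119 for Per1. Without the same 2 mice r fell in size to -0.582 for Per3, -0.587 for Dbp and -0.393 for Per2.

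**Figure D5:**
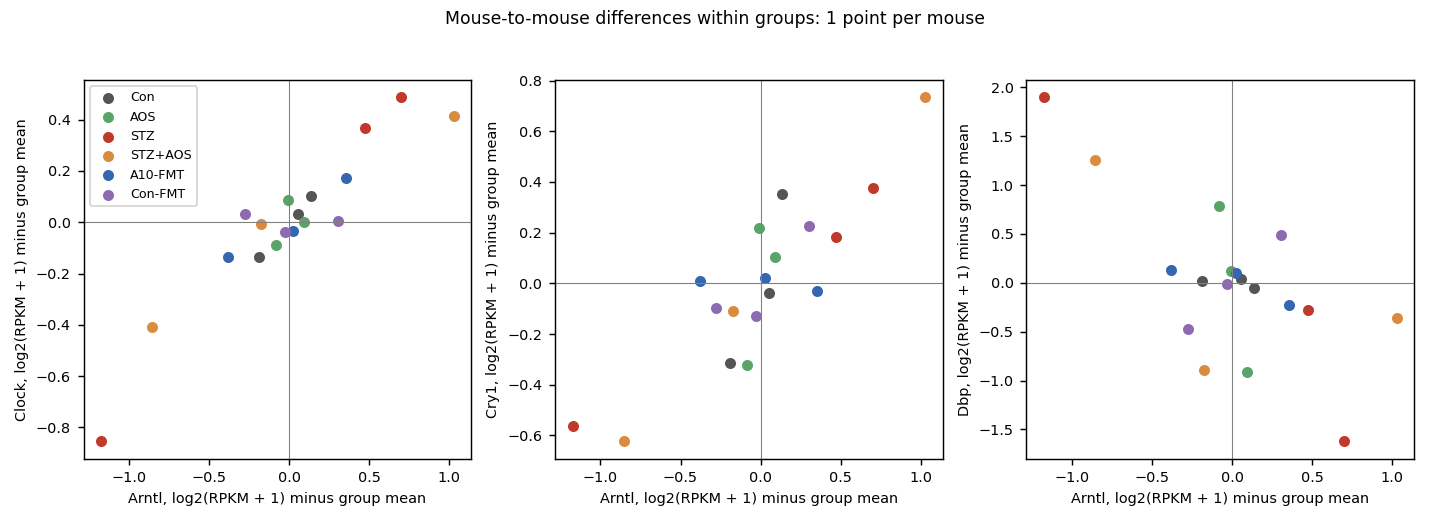
Difference from the group mean, in log2(RPKM + 1), of Clock, Cry1 and Dbp (vertical axes) against that of Arntl (horizontal axes), with 1 point for each of the 18 mice, coloured by group. Clock rose with Arntl at an r of 0.939 and Cry1 at 0.878, while the r of -0.693 for Dbp did not pass, and mice of STZ and STZ+AOS lie at the ends.

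Further components of the loop were read from a list of 17 genes, of which 14 were tested. This list and the gene lists after it were chosen with earlier results of these data known, so their counts are descriptions. In STZ against Con 9 were called higher and 1 lower, beside 33% and 5.52% of all genes, with a median change of 0.49 against 0.21 over all genes. These shares are of values without further scaling. With median-ratio scaling 1480 of the 2871 genes called in STZ against Con were higher, and the lists were not refitted so. Those with the smallest adjusted p included relatives of members and an enzyme that modifies them. Tef, a D-box activator like Dbp, rose by 2.33 ± 0.37 (adjusted p = 0.00131 by limma), from 6.71 ± 1.63 to 43.1 ± 27.4 RPKM (SD, n = 3). Ciart, a repressor of the activator pair, rose by 2.72 ± 0.66 (adjusted p = 0.00859), from 0.39 ± 0.06 to 12.7 ± 12.5 RPKM. Nfil3, which competes with Dbp at D-boxes and represses, changed by -1.10 ± 0.21 (adjusted p = 0.00325), from 22.7 ± 1.31 to 10.5 ± 3.85 RPKM. Rora, an activator at the element shared with the REV-ERB receptors, rose by 0.66 ± 0.13, and Csnk1e, a kinase of the PER proteins, by 0.74 ± 0.16. No gene of the list was called in either FMT group against STZ, in A10-FMT against Con-FMT, in AOS against Con or in STZ+AOS against STZ. Against Con, 4 were higher and 1 lower in A10-FMT, beside 15.9% and 2.47% of all genes, and 1 was higher and 2 lower in Con-FMT, beside 17.5% and 1.89%. In STZ+AOS against AOS 8 were higher, beside 31.8% of all genes.

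Genes through which the clock acts on liver metabolism were read from a list of 15, all of them tested. This list too was chosen with earlier results of these data known. In STZ against Con 12 were called higher and 1 lower, beside the same 33% and 5.52% of all genes, with a median change of 1.48 against 0.21. Por, the electron donor of cytochrome P450 enzymes, rose by 3.11 ± 0.35 (adjusted p = 0.000342 by limma), from 40.7 ± 3.0 to 395.4 ± 187.6 RPKM. Lpin1, a phosphatidate phosphatase that also acts as a coactivator in fasting, rose by 3.17 ± 0.35, from 5.12 ± 0.87 to 54.8 ± 13.6 RPKM. Cyp2a5, a D-box regulated enzyme that hydroxylates coumarin, rose by 5.20 ± 0.65, from 98.4 ± 55.0 to 3910 ± 2810 RPKM, and its reads may be shared with the near-identical Cyp2a4. Rgs16, a regulator of G protein signals, rose by 4.60 ± 0.84, and Coq10b, which handles coenzyme Q, by 1.54 ± 0.20.

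Elovl3, an enzyme that lengthens fatty acids, was the only gene of that list to fall. It changed by -6.48 ± 0.93 (adjusted p = 0.00084 by limma), from 225.5 ± 15.4 RPKM in Con to 4.09 ± 6.87 in STZ, where the mice ranged from 0.06 to 12.03. AOS mice had 114.1 ± 39.5 RPKM, STZ+AOS mice 0.09 ± 0.05, A10-FMT mice 3.31 ± 3.67 and Con-FMT mice 2.96 ± 2.87. None of the 15 was called in either FMT group against STZ or in AOS against Con. In A10-FMT against Con 14 were higher and 1 lower, beside 15.9% and 2.47% of all genes. In Con-FMT against Con the numbers were 7 and 1, beside 17.5% and 1.89%, and in STZ+AOS against AOS 10 and 1, beside 31.8% and 6.11%. Several of these genes also answer to insulin, feeding or nuclear receptors, and that part was not tested.

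A list of 10 genes that follow body temperature or glucocorticoid, signals that set peripheral clocks, was read beside the members. In STZ against Con 4 were called higher and 0 lower, beside 33% and 5.52% of all genes, with a median change of 0.89 against 0.21. Sgk1, a glucocorticoid-induced kinase, rose by 2.01 ± 0.27 (adjusted p = 0.000614 by limma), from 5.76 ± 0.37 to 27.9 ± 12.5 RPKM. Fkbp5, a cochaperone of the glucocorticoid receptor, rose by 1.86 ± 0.36, Zbtb16, a transcription factor that the same hormone induces, by 1.30 ± 0.20, and Rbm3, a cold-induced RNA binding protein, by 1.69 ± 0.42. Tsc22d3, another gene that glucocorticoid induces, which is named here after its value was seen, stood at -0.18 ± 0.29 and was not called. The rest of the list, also named after the values were seen, was not called and went both ways. Cirbp stood at 1.05 ± 0.42, Hspa8 at 0.72 ± 0.27, Hspa1b at -1.51 ± 1.27, Hsp90aa1 at -0.78 ± 0.48 and Hsph1 at -0.34 ± 0.68. In A10-FMT Zbtb16 was at 1.12 ± 0.30 RPKM against 4.70 ± 1.75 in STZ, a change of -1.39 ± 0.20 (adjusted p = 0.0286), and it was the only gene of the 3 lists called in an FMT group against STZ. Their part in the levels of the clock genes was not tested.

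The genes whose levels ran most like Arntl and Dbp over the 18 livers were taken by Pearson's r of log2(RPKM + 1) among 10817 genes, as a description in which group differences enter. For Arntl these were Asap2 (0.965), Chka (0.934), Pnrc1 (0.930), Mical2 (0.929) and Dpp9 (0.927), with Clock at rank 10 (0.891) and Cry1 at rank 24 (0.854). Chka, a kinase that opens phosphatidylcholine synthesis, had means of 48.7 RPKM in Con, 22.1 in STZ, 15.7 in Con-FMT and 8.43 in A10-FMT. The most opposite were Gpr146 (-0.909), Akr1c12 (-0.895) and Akr1c13 (-0.871), of which the last pair are close paralogs whose reads may be shared. For Dbp the most alike were Slc38a3 (0.964), a glutamine transporter, Uox (0.960), urate oxidase, Tef (0.959), Igfbp4 (0.949) and Fbp1 (0.947), an enzyme of gluconeogenesis, with Per3 at rank 10 (0.935). Npas2 (-0.953) was among the 3 most opposite.

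Markers of other cell types were summed to see whether they moved with the groups. The 5 stellate cell and fibroblast markers summed to 67.4 to 78.3 RPKM in Con and 105.6 to 125.2 in STZ, with 1 of 5 called higher, and their part in the results was not tested. The 5 endothelial markers summed to 35.1 to 40.2 RPKM in Con and 37.8 to 49.6 in STZ, and the 5 Kupffer cell and macrophage markers to 56.0 to 82.8 and 76.8 to 138.7. The 4 adipocyte markers summed to 0.29 to 0.44 RPKM in Con and 0.84 to 2.40 in STZ, with no gene of the list tested. The 4 cholangiocyte markers summed to 3.88 to 4.57 RPKM in Con and 3.06 to 4.61 in STZ, and the 4 neutrophil markers to 2.84 to 9.74 and 1.20 to 3.69, and in each of these lists 1 of 2 genes tested was called lower. The markers Epcam, Ngp, Camp, Adipoq, Plin1 and Lep were under 1 RPKM in every library. The part of these markers in the results was not tested. Exocrine pancreas markers were at most 1.43 RPKM except in 1 STZ+AOS library, where they summed to 29.05.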

How the data were processed

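Livers of 18 mice were sequenced after TRIzol extraction and oligo(dT) enrichment on an Illumina HiSeq instrument. The authors deposited 1 RPKM value per gene and library, mapped per the methods with SOAPaligner to reference genes, whereas the submitters' processing notes name Bowtie 0.12.2 and mm10. RPKM values were used as deposited, and tests on read counts were not run. A gene entered a fit when 3 or more of its libraries reached 1 RPKM. After 1 was added and log2 taken, limma 3.58.1 (R 4.3.3) fitted a mean per group (eBayes with trend, two-sided, Benjamini-Hochberg over all genes, called under 0.05). Comparisons among Con, STZ, A10-FMT and Con-FMT used their 12 libraries (10602 genes), and comparisons with AOS or STZ+AOS all 18 (10822 genes). Correlations were tested by exact permutation within groups (46656 arrangements, two-sided) in Python 3.11.15 with scipy 1.17.1. The fit was tested on simulated data. The 10 genes and the lists were chosen with earlier results of these data known. The named-gene rule took the 10 genes, up to 6 genes per list called in STZ against Con by adjusted p, and the 5 highest and 3 lowest r for Arntl and Dbp. Some genes that this rule took are not reported here. Rows with 26 date-like and 3 repeated symbols were left as they were. The hepatocyte marker Tf and the promoter of Per2 were not used here. Alternatives were other scalings, pseudocounts and filters, other groups in the fit, a replicate block and leaving out mice.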

Additional observations from a re-analysis of the deposited data

How the results depend on the processing

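Counts of called members in the 10 comparisons stayed within 1.5 times the reported value in 150 recomputations and moved beyond it in 14. With a filter of 1 RPKM in every library, which keeps 5 of the 10 genes, each of the STZ, Con-FMT and A10-FMT groups had 3 called against Con, and STZ+AOS had 2 against AOS. With an adjusted p of 0.001 or less and an absolute log2 change of 1 or more, the limits of the study, these counts were 2 for STZ, 2 for Con-FMT, 3 for A10-FMT and 3 for STZ+AOS. In AOS against Con 1 member was called with median-ratio scaling and 1 in a fit of the compared groups alone. Leaving out each mouse in turn gave 0 to 4 members in A10-FMT against STZ, 0 to 3 in Con-FMT against STZ and 0 to 1 in AOS against Con. Leaving out Con mouse 3 and AOS mouse 3 together, an alternative chosen after seeing the data, gave 5 members in STZ+AOS against AOS.

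In STZ against Con the changes that turned sign were those of Per2 and Clock, which were not called. Per2 came to -0.011 with median-ratio scaling, Per2 ranged from -0.22 to 0.56 and Clock from -0.43 to 0.24 when each mouse was left out. Changes that were not called also turned sign in other comparisons, such as Dbp, from -0.094 to 1.67 in Con-FMT and from -0.37 to 1.40 in STZ+AOS, and Per3, from -0.41 to 0.69 in A10-FMT, each against STZ. The within-group correlation of Arntl with Per1 was -0.043 after quantile normalization, -0.021 after median-ratio scaling and -0.017 at a pseudocount of 0.1, and it ranged from -0.342 to 0.319 without single mice. That with Nr1d1 ranged from -0.075 to 0.237. That with Per2 passed after quantile normalization (-0.596) and after median-ratio scaling (-0.583), and ranged from -0.752 to -0.436 without single mice. The cause was not tested.

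Mice share the numbers 1 to 3 across groups, but same-numbered mice correlated over 0.1 in 6 of 18 pairs of the 4 groups and 16 of 45 of the 6 groups, so the numbers were not taken as pairs. Only for A10-FMT and Con-FMT did all 3 same-numbered pairs of the 4 groups exceed 0.1 (0.122, 0.292 and 0.179), and there a fit with the block also called 0 members. A fit with a replicate block called 7 members in STZ, 6 in Con-FMT and 8 in A10-FMT, each against Con, 5 in STZ+AOS against AOS and 0 in the other comparisons. Depth in reads is unknown, so the sampling error of values under 1 RPKM (Npas2 in most mice with STZ, Per3 and Dbp in Con) could not be given.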
